A study of Homo sapiens with 28 samples.

Results

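Gene expression was compared between H1299 cells exposed to decitabine at 3 µM for 48 h and H1299 cells exposed to the vehicle alone. The comparison used the 4 arrays whose labels give these conditions, 2 for each, of 28 arrays in the whole series. The study set decitabine beside azacitidine in 2 human non-small cell lung cancer lines, H1299 and A549, each drug at 0.3, 1 or 3 µM, with dimethyl sulfoxide (DMSO) as the vehicle. Cells grew in plates, drug was renewed every day, and total RNA was hybridised to one-colour Affymetrix arrays. Further groups were used to place the response: H1299 with decitabine at 0.3 µM and at 1 µM, H1299 with azacitidine at 3 µM, A549 with DMSO, and A549 with decitabine at 3 µM, each for 48 h and each with 2 arrays. H1299 is an established line that lacks p53 and carries an activated NRAS gene, and A549 has intact p53, so each line is a single genetic background. No label says that the 2 arrays of a group came from separate cultures. Every p-value below therefore measures the spread between arrays of the same group, which may be technical. That spread was pooled over all 28 arrays of the 14 groups in the series, which include both lines and both drugs.

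Decitabine is the deoxyribonucleoside form of azacitidine. Deoxycytidine kinase starts its activation, and cells that copy their DNA build it into the new strand, where DNA methyltransferases become covalently trapped and are then degraded. Methylation is lost as the cells go on dividing, and the trapped protein is itself a DNA lesion. Azacitidine is activated by another kinase and enters mostly RNA. Germ cell genes that most somatic cells keep methylated are the textbook genes that become expressed after such treatment.

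Values are MAS5 signals, the brightness that the Affymetrix software gives each probe set on a linear scale. The arrays shared a common scale, and their medians in H1299 lay between 92.7 and 106. Differences are given on the log2(signal + 32) scale with a standard error (SE) for n = 2 arrays a group, which draws differences between dim genes toward 0. Each gene was tested with limma, and a gene is called where its p, adjusted over the 8024 genes tested by the Benjamini-Hochberg method, was under 0.05. The correlation of replicate arrays was 0.9916 for the vehicle and 0.993 for decitabine at 3 µM. The arrays carried features of H1299: MAGEA4, which averaged 16.5 in A549 with vehicle, read 6668 and 6386 with vehicle. ALDH1A1, which averaged 14275 in A549, read 1.64 and 2.12. VIM, the mesenchymal filament vimentin, read 11310 and 13528 with vehicle but averaged 10172 in A549, so it does not tell the lines apart. CDH1, which encodes E-cadherin, read 14.5 and 2.44 with vehicle and 4.49 and 12.5 with decitabine, so the defining epithelial cadherin stayed near 0 in both groups. Of the leukocyte markers, ITGAM alone was tested, at 145 and 120 against 193 and 230, with a call that was lost in some alternative settings. The other 16 were too dim to test, at 0.769 to 87.9, and their summed signal was 444.4 and 350.0 with vehicle and 390.0 and 364.9 with decitabine.

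At 3 µM decitabine, 2477 of 8024 genes were called (30.9%), 1305 of them higher (16.3%) and 1172 lower (14.6%) than with vehicle. Most differences were small: the median absolute log2 difference of the called genes was 0.52, and the median SE over all genes was 0.13. Past a log2 difference of 1 stood 273 genes (3.40%), 200 higher (2.49%) and 73 lower (0.910%). Without vehicle replicate 1 the number of lower genes was 754, with the lone vehicle array assumed to vary like the other groups. In these bulk samples, fewer cells of a type and less RNA per cell cannot be told apart. The median log2 difference over all 8024 genes was -0.01, the value against which the medians of gene lists below can be read. The counts of each list can be read against the shares of all genes, 16.3% higher and 14.6% lower. Those shares do not hold for dim genes. Of the 545 tested genes with a vehicle signal up to 50, 27% were higher and 2.2% lower. A list with many dim members can therefore hold more rises and fewer falls for that reason.

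The 20 largest rises were led by germ cell genes and by genes that were almost without signal in the vehicle arrays. For 16 of these 20 genes both vehicle arrays lay below the array median, so they entered the test only because other arrays of the series were brighter. The same held for 113 of the 200 genes that rose past a log2 difference of 1 and for 1072 of all genes tested. The share of X-linked genes was 3.55% of all genes tested, 6.5% of those that rose past 1 and 20% of the 20 largest rises. The 20 largest falls began from a median vehicle signal of 819, and none of them lay on the X chromosome.

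**Figure D1:**
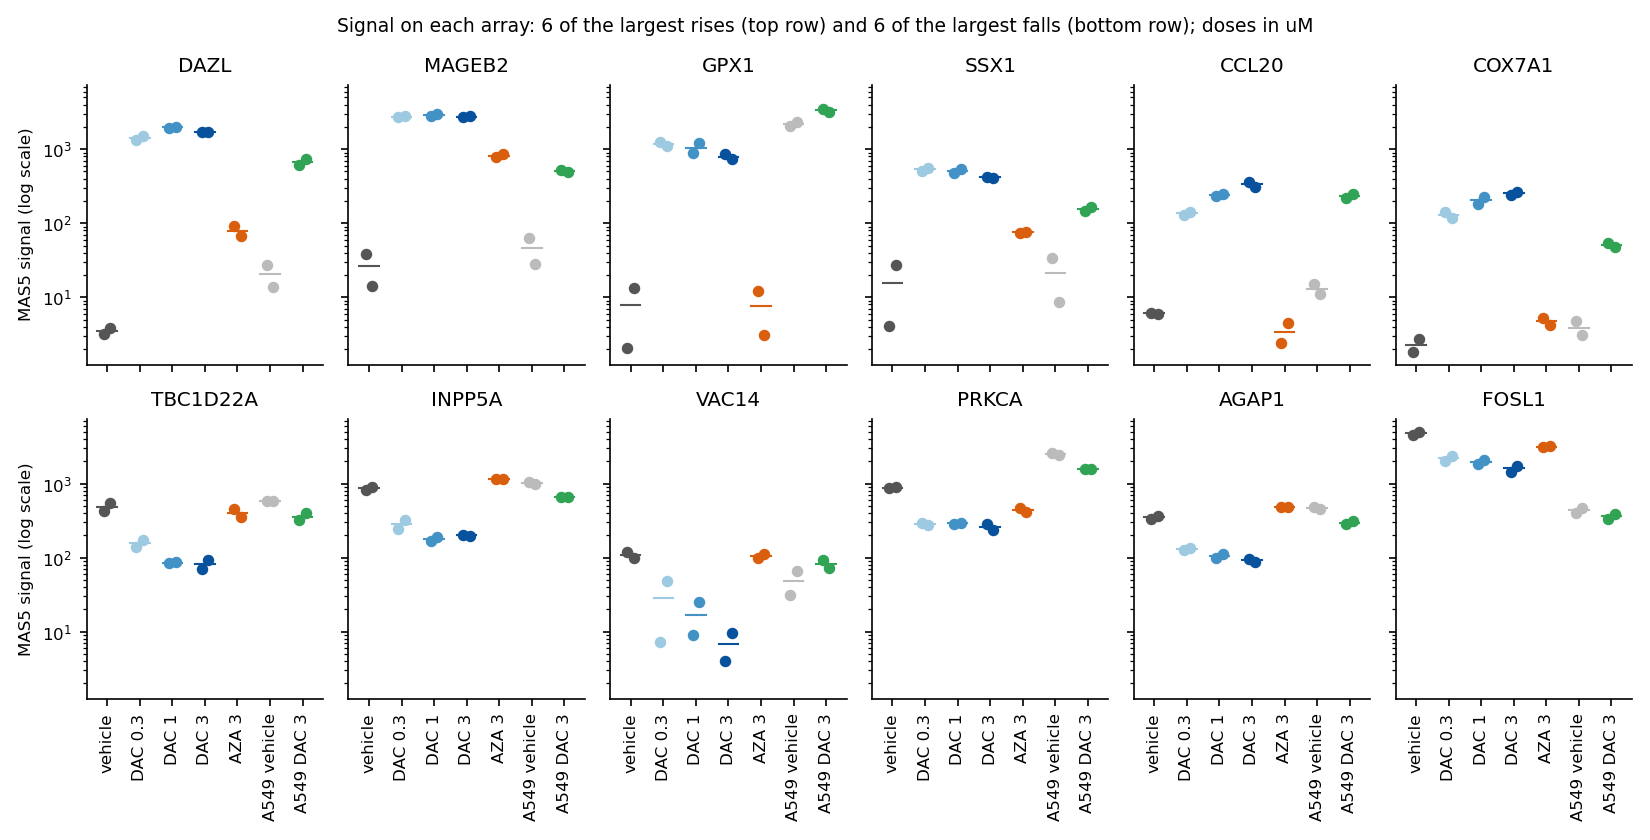
MAS5 signal on a log axis for each array of 7 groups, for 6 of the largest rises (top row) and 6 of the largest falls (bottom row); each point is 1 array and each bar the mean of 2. DAZL stood at 3.20 and 3.85 with vehicle and at 1733 and 1710 with decitabine 3 µM, and PRKCA at 872 and 889 with vehicle and at 280 and 239.

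The promoters of the 5 largest rises with an entry in the RefSeq promoter table are printed here, since they show how unlike in CG content the start regions of the strongest responders are. Each run is the 250 bases before the transcription start in build GRCh38.p14, read 5′ to 3′ along the gene, with every CG, the dinucleotide that DNA methyltransferases act on, in capitals. The DAZL run lies at chr3:16605424-16605673 on the minus strand and holds 28 CG. The MAGEB2 run lies at chrX:30215313-30215562 on the plus strand and holds 15 CG. The GPX1 run lies at chr3:49358354-49358603 on the minus strand and holds 20 CG. The SSX1 run lies at chrX:48255142-48255391 on the plus strand and holds 3 CG, as does the CCL20 run at chr2:227813592-227813841 on the plus strand.
DAZL: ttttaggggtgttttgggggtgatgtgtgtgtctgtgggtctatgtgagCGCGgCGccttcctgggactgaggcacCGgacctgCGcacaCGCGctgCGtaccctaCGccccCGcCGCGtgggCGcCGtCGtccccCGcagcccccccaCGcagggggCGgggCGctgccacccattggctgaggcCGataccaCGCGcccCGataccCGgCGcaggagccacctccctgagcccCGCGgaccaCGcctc
MAGEB2: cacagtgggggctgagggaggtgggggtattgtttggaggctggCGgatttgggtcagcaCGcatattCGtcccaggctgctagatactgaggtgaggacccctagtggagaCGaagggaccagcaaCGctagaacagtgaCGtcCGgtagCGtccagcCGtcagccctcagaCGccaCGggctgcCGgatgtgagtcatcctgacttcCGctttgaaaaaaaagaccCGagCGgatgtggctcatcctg
GPX1: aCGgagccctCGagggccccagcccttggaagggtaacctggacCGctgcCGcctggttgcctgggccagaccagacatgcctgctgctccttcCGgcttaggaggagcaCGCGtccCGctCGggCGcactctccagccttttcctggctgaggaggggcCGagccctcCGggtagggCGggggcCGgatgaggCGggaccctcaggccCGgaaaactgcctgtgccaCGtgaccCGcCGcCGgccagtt
SSX1: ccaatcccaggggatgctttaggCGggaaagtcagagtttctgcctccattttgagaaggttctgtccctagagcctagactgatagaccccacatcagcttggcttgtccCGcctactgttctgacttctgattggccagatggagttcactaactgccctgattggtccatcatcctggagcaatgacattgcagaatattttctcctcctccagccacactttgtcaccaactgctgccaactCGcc
CCL20: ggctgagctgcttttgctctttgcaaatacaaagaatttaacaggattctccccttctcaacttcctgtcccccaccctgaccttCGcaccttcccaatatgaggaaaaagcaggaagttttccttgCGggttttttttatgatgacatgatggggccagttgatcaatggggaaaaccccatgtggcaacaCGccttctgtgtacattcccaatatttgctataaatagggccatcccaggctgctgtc

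DAZL and GPX1 thus had CG-rich start regions and SSX1 and CCL20 CG-poor ones, with 72.0% and 70.8% G or C in the former pair and 51.2% and 46.8% in the latter. Among the 6662 tested genes with an entry, the median promoter held 21 CG, and 10.7% of promoters held fewer than 8. Among the 155 genes with an entry that rose past 1, the median was 18 and 24.5% held fewer than 8. Among the 17 of the 20 largest rises with an entry, the median was 7 and 52.9% held fewer than 8. Promoters of dim genes were CG-poorer in general: of the 931 genes with an entry and a vehicle signal under 100, 28.5% held fewer than 8 CG, against 34.4% of the 90 such genes that rose past 1. The 17 of the 20 largest falls with an entry had a median of 24 CG.

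Short motifs were counted in the same 250 bases on both strands. TGACTCA, the AP-1 site, occurred in the MAGEB2 promoter and in 4.52% of the promoters of genes that rose past 1, against 2.43% of all tested genes and 4.16% of the 27305 promoters in the table. CACGTG, the E-box, occurred in the GPX1 promoter and in 6.45% of the risers past 1, 11.5% of the genes that fell past 1, and 9.37% of tested genes. TTCCCGC, an E2F site, occurred in the SSX1 promoter and in 5.81% of the risers past 1 and 9.61% of tested genes. The NF-kB motif occurred in the CCL20 promoter and in 14.8% of the risers past 1, 9.84% of the genes that fell past 1 and 11.9% of tested genes. Of the genes that rose past 1, 58.5% had a vehicle signal under 100. Among the 931 tested genes with an entry and such a signal, the shares were 3.44% for TGACTCA and 6.34% for CACGTG. They were 6.02% for TTCCCGC and 11.7% for the NF-kB motif. The TGACTCA share of the risers past 1 rests on 7 promoters. A match is a run of letters in this window and nothing more.

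Calls among the germ cell genes tested differed by family, and the dim ones entered the test only because other arrays were brighter. DAZL, an RNA-binding protein of germ cells, read 3.20 and 3.85 with vehicle and 1733 and 1710 with decitabine 3 µM, a log2 difference of 5.63 (SE 0.16, limma adjusted p = 5.94e-16). MAGEB2, an X-linked cancer-testis gene, read 38.7 and 14.2 against 2701 and 2800 (5.61, SE 0.17, adjusted p = 7.78e-16). Its neighbour in the family MAGEB1 read 12.3 and 10.02 against 339 and 307 (3.04, SE 0.18). In all of these the groups were far apart, and the vehicle arrays were at or near the bottom of the scale. The size of such a difference, and the order of the largest rises, therefore depends on the pseudocount: over the settings tried the log2 difference ran from 3.81 to 8.58 for DAZL, from 2.75 to 6.88 for GPX1, from 1.52 to 5.72 for S100A6 and from 1.04 to 5.97 for KRT19. These 4 genes were called in every setting, and the SE does not cover this dependence.

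Of the MAGE-A genes, by contrast, none of the 5 tested was called. MAGEA4 and MAGEA6 were already bright: MAGEA4 read 6156 and 6241 with decitabine, close to its vehicle values, and MAGEA6 read 10126 and 9536 with vehicle and 9603 and 10094 with decitabine. MAGEA8, at 25.3 and 8.18 with vehicle, and MAGEA11, at 9.15 and 13.6, were too dim to test. Of the 9 MAGE genes tested, MAGEB1 and MAGEB2 alone were called, and 5 further members on the array were too dim to test. Among those 5 were MAGEB3, at 14.5 and 11.7 with vehicle against 37.5 and 42.1 with decitabine, and MAGEB4, at 15.3 and 4.92 against 10.3 and 20.4. SSX1, from another X-linked cancer-testis family, read 4.15 and 27.0 against 418 and 411 (3.27, SE 0.24), and SSX3 read 66.0 and 54.7 against 181 and 251 (1.41, SE 0.25). Both SSX probe sets can share probes with related sequences, so the family member is uncertain. Of 14 autosomal germ cell genes tested, DAZL and STAG3, a cohesin subunit of meiosis, rose and 2 fell. STAG3 went from 246 and 208 to 565 and 518 (1.15, SE 0.22). KHDC1L, a gene of the oocyte KH-domain family, was outside these lists and went from 3.64 and 5.20 to 236 and 193 (2.75, SE 0.23).

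Several of the largest rises were genes dim in H1299 with vehicle and bright in A549. GPX1, the cytosolic glutathione peroxidase, read 2.09 and 13.5 with vehicle and 849 and 729 with decitabine 3 µM (4.38, SE 0.15, limma adjusted p = 5.58e-15). In A549 with vehicle it read 2085 and 2339. LXN, a carboxypeptidase inhibitor, went from 3.43 and 7.60 to 273 and 205 (2.85, SE 0.16). CRIP1, a small LIM-domain protein, went from 2.29 and 9.96 to 223 and 176 (2.60, SE 0.21). GJA1, the gap junction protein connexin, went from 71.5 and 60.7 to 547 and 558 (2.58, SE 0.11). Treated H1299 remained far below the A549 vehicle arrays for these genes: LXN read 1145 and 1214 there, CRIP1 2670 and 3114, and GJA1 4652 and 4215.

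Of 16 S100 calcium-binding proteins on the array, 9 were tested and the others were too dim. Of these 9, 5 rose and none fell, with a median log2 difference of 0.72. S100A6 read 5.29 and 2.58 with vehicle and 263 and 235 with decitabine (2.97, SE 0.10, limma adjusted p = 2.22e-15), against 11525 and 12270 in A549 with vehicle. S100A4, a marker of motile mesenchymal cells, went from 66.0 and 83.8 to 335 and 241 (1.57, SE 0.17). S100A2 went from 387 and 319 to 796 and 808, S100P from 7.91 and 5.6 to 57.5 and 40.3, and S100A10 from 3397 and 3716 to 5281 and 5187. The vehicle and treated arrays did not overlap for any of the 5, a condition that 67.2% of all genes met in either direction. COX7A1, the muscle isoform of a cytochrome oxidase subunit, rose from 1.83 and 2.72 to 242 and 265 (3.06, SE 0.17), and it was the only one of 11 tissue isoforms of the respiratory chain tested that rose. The 14 complex I subunits tested held 1 lower gene and none higher.

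Of the 56 chemokine and cytokine genes on the array, 26 were tested and the others were too dim. Of these 26, 13 rose, against 16.3% of all genes, and none fell, with a median of 0.24. CCL20, CXCL1, IL32, IL23A and LIF lay below the array median with vehicle, where a fall is hard to see. CCL20, which attracts CCR6-bearing cells, read 6.22 and 5.90 with vehicle and 363 and 308 with decitabine 3 µM (3.27, SE 0.22, limma adjusted p = 3.01e-10). CXCL1, a neutrophil chemokine, went from 59.1 and 50.9 to 239 and 229 (1.61, SE 0.18). IL32 went from 15.1 and 16.8 to 268 and 243 (2.58, SE 0.19), and IL23A from 47.9 and 4.16 to 237 and 197 (2.21, SE 0.32). LIF, a cytokine of the interleukin-6 family, went from 9.21 and 24.99 to 107 and 116 (1.56, SE 0.19). IL6 and CXCL8 were not called: CXCL8 read 16.9 and 22.2 with vehicle and 17.7 and 23.0 with decitabine, and the IL6 groups overlapped as well.

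Within the NF-kB pathway, which these genes are known to answer to, 10 of 20 tested rose and 1 fell (median 0.32). The rises lay mostly among the feedback targets, 7 of 10. IER3, an early survival gene, read 436 and 416 against 1148 and 1116 (1.35, SE 0.08). ICAM1, the leukocyte adhesion molecule, went from 81.4 and 75.6 to 209 and 214 (1.14, SE 0.19), and TNFAIP3, which shuts the pathway off, from 256 and 252 to 456 and 463 (0.78, SE 0.15). Of the 5 subunits RELB alone was called, at 432 and 433 against 829 and 737 (0.81, SE 0.12).

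AP-1 and immediate early genes are transcription factors that cells switch on within minutes of growth or stress signals. Of 19 tested, 12 rose and 1 fell, with a median of 0.51. EGR1 read 365 and 341 with vehicle and 2678 and 2605 with decitabine 3 µM (2.80, SE 0.13, limma adjusted p = 6.15e-13). FOS went from 14.99 and 29.7 to 207 and 200 (2.13, SE 0.19), EGR3 from 26.3 and 23.3 to 125 and 123 (1.46, SE 0.23), and MAFF, a small Maf protein, from 852 and 737 to 2328 and 2389 (1.54, SE 0.09). The gene that fell was FOSL1, the Fos member that RAS signalling sustains in such lines: it fell from 4532 and 5031 to 1447 and 1747 (-1.57, SE 0.13, adjusted p = 1.08e-08). JUN and MYC were among the 6 not called, JUN at 1117 and 964 against 852 and 909 and MYC at 3262 and 3326 against 3676 and 3583.

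Of 37 genes of RAS-ERK output, the pathway that mutant NRAS drives, 7 rose and 8 fell, against 16.3% and 14.6% of all genes. The median was -0.01. DUSP1, a phosphatase that switches MAP kinases off, rose from 490 and 445 to 1350 and 1402 (1.495, SE 0.08). PRKCA, a protein kinase C that feeds the pathway, fell from 872 and 889 to 280 and 239 (-1.65, SE 0.09, limma adjusted p = 2.63e-11). HMGA2, the chromatin protein that is abundant in H1299, fell from 10799 and 11442 to 7060 and 6934 (-0.67, SE 0.09). TMEM158, outside this list and known for its induction by active RAS, fell from 4462 and 3850 to 1650 and 1529 (-1.37, SE 0.13).

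Epithelial genes rose in number without the epithelial cadherin. Of 25 tested, 12 rose and none fell, with a median of 0.45. SPINT2, a membrane protease inhibitor, read 96.4 and 128.3 with vehicle and 965 and 884 with decitabine 3 µM (2.74, SE 0.13, limma adjusted p = 1.32e-12). EPCAM, the epithelial adhesion molecule, went from 9.23 and 33.2 to 280 and 247 (2.51, SE 0.17), CLDN7, a tight junction claudin, from 4.19 and 5.27 to 142 and 159 (2.31, SE 0.29), and AQP3, a water channel, from 25.8 and 17.7 to 121 and 103 (1.42, SE 0.14). A further 14 epithelial genes on the array were too dim to test.

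All 5 keratins tested rose (median 0.94), and 10 others on the array were too dim to test. KRT19 read 1.35 and 1.10 against 143 and 133 (2.35, SE 0.14), and KRT8 and KRT18, the pair that forms the filaments of simple epithelia, read 406 and 349 against 1009 and 962 (1.32, SE 0.10) and 4583 and 4846 against 6914 and 7238 (0.58, SE 0.10). KRT10 and KRT7 rose too, with log2 differences of 0.29 and 0.94, each with a call that was lost in at least 1 alternative setting. Vimentin read 10898 and 11165 with decitabine and was not called.

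Matrix and mesenchymal genes were divided, 14 of 42 higher and 7 lower (median 0.10). SPARC, a matrix glycoprotein, read 26.1 and 30.5 with vehicle and 432 and 425 with decitabine (2.93, SE 0.19, limma adjusted p = 2.62e-10). TIMP1, an inhibitor of matrix proteases, went from 3517 and 3467 to 8508 and 8327 (1.26, SE 0.09), and LAMB3, a laminin chain of epithelial basement membrane, from 713 and 707 to 2324 and 2195 (1.63, SE 0.25). Of the 3 transcription factors of the mesenchymal state that were tested, TWIST1 rose (0.36) and ZEB1 (-0.24) and ZEB2 (-0.62) fell.

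Targets of YAP and TGF-beta, which regulate growth and matrix, held rises and falls, as did all genes (16.3% and 14.6%). CCN2, the matricellular target of YAP, read 1688 and 1591 with vehicle and 7740 and 8372 with decitabine 3 µM (2.27, SE 0.09, limma adjusted p = 5.96e-14), and ANKRD1, another YAP target, went from 73.9 and 91.2 to 320 and 274 (1.53, SE 0.19). Of 21 tested, 6 rose and 5 fell, with TGFBR2, the receptor of TGF-beta, lower at 498 and 533 against 240 and 235 (-1.02, SE 0.09) and ID4, an inhibitor of differentiation, higher at 36.0 and 19.1 against 131 and 127.7 (1.45, SE 0.18).

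In the insulin-like growth factor axis 6 of 13 rose, against 16.3% of all genes, and none fell. Of the rises 4 were among the 6 binding proteins, which hold the growth factors outside the cell. IGFBP4 was one of these 4 (0.46), with a call that was lost in most of the alternative settings. IGFBP3 went from 88.0 and 83.5 to 542 and 468 (2.18, SE 0.10), IGFBP6 from 145 and 103 to 395 and 415 (1.499, SE 0.14) and IGFBP1 from 16.5 and 18.6 to 63.6 and 81.3 (1.07, SE 0.19). IRS2, an adaptor of the insulin receptor, went from 21.7 and 6.58 to 87.9 and 81.7 (1.36, SE 0.16). Of the Wnt antagonists, DKK1 rose from 410 and 372 to 2240 and 2308 (2.45, SE 0.12, limma adjusted p = 1.32e-12) and WIF1 from 28.2 and 21.4 to 211 and 219 (2.12, SE 0.20), while DKK3 fell by 0.39 on the log2 scale.

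Imprinted genes, which carry methylation on 1 parental copy, showed 5 rises and 2 falls among 15 tested (median 0.05). MEST, expressed from the paternal copy, read 54.6 and 58.8 with vehicle and 331 and 301 with decitabine (1.97, SE 0.09, limma adjusted p = 6.15e-13). TFPI2, a protease inhibitor of the matrix that is also known to be methylated in lung cancer, went from 1790 and 1980 to 6128 and 6826 (1.76, SE 0.10). Of 22 genes known to be methylated in lung cancer that could be tested, 3 rose and 1 fell, near the background. The remaining 13 on the array were too dim to test.

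Class I antigen presentation rose in part. Of 21 genes tested 9 rose and 2 fell, and 6 of the rises were among the 9 heavy chains and related surface molecules. HLA-E read 756 and 815 with vehicle and 1445 and 1432 with decitabine (0.85, SE 0.12), and TAP1, the peptide transporter, 323 and 239 against 788 and 629 (1.25, SE 0.16). B2M, the light chain shared by all class I molecules, was not called, at 7857 and 8549 against 8452 and 8329. CIITA, the switch for class II genes, fell (-0.93, SE 0.33), with groups at 67.3 and 63.7 and at 28.8 and 11.3, and that call was lost in some alternative settings. Interferon-stimulated genes did not move as a group, with 5 of 31 higher and 4 lower (median 0.05). IRF7, the interferon-induced regulator, rose from 88.2 and 90.7 to 186 and 200 (0.89, SE 0.18), and EIF2AK2, the kinase that senses double-stranded RNA, fell from 1173 and 1144 to 607 and 593 (-0.91, SE 0.12, limma adjusted p = 4.22e-06).

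All 4 testable H2B histone genes rose. H2BC12 read 2631 and 2400 with vehicle and 4633 and 4637 with decitabine (0.88, SE 0.08), H2BC21 went from 77.2 and 96.3 to 165 and 178 (0.78, SE 0.15), and H2BC5 and H2BC6 rose by 0.72 and 0.91 on the log2 scale. The probe sets of H2BC5 and H2BC6 can share probes with related sequences.

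**Figure D2:**
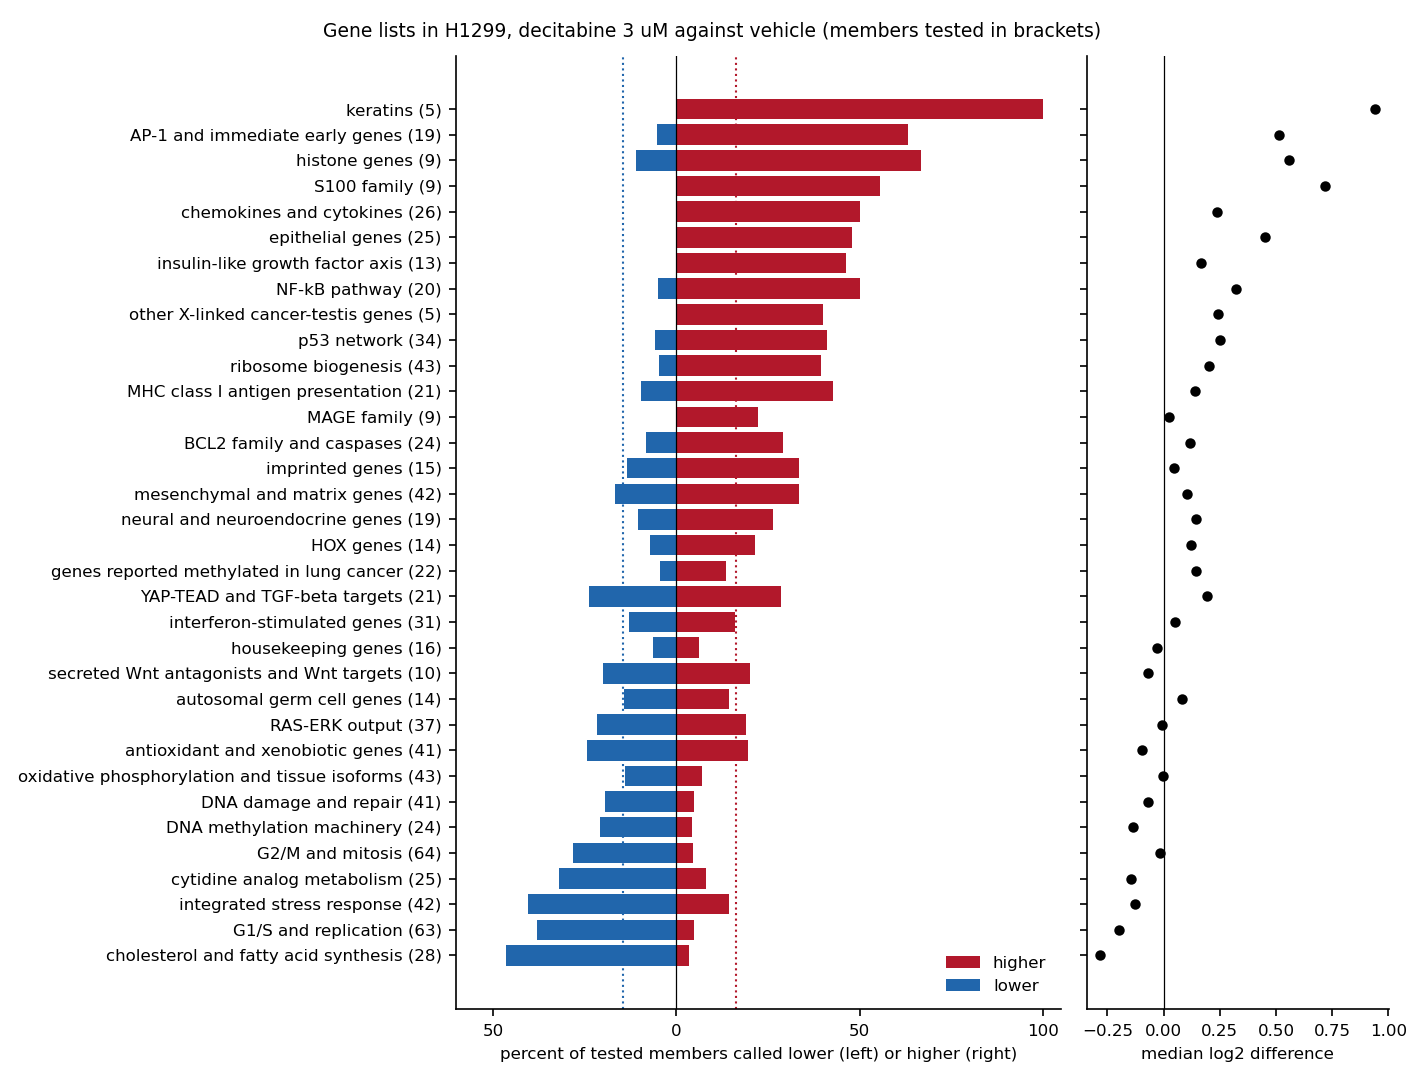
Left, the percent of the tested members of each list called higher (red) or lower (blue) with decitabine 3 µM, with dotted lines at the background of all genes, 16.3% and 14.6%; right, the median log2 difference of each list. Keratins (5 of 5 higher), AP-1 and immediate early genes (12 of 19) and histone genes (6 of 9) have the largest shares of higher genes, and cholesterol and fatty acid synthesis (13 of 28) the largest share of lower genes, among the lists drawn. Only 5 of 15 keratins and 9 of 18 histone genes on the array were tested. A gene dim with vehicle was tested only where other arrays were brighter, which favours rises in the shares.

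Genes of the p53 network rose in this line, which has no p53. Of 34 tested, 14 rose and 2 fell (median 0.25). CDKN1A, the p21 inhibitor of cyclin-dependent kinases, read 451 and 422 with vehicle and 922 and 890 with decitabine 3 µM (1.00, SE 0.10, limma adjusted p = 6.65e-08). SFN, the 14-3-3 protein of the mitotic checkpoint, went from 658 and 550 to 2083 and 2056 (1.73, SE 0.12), SAT1, a polyamine acetylase, from 2210 and 1943 to 5092 and 5538 (1.34, SE 0.09), and PLK2, a stress kinase, from 742 and 766 to 1861 and 1910 (1.29, SE 0.08). IER5 went from 838 and 826 to 1773 and 1863 (1.10, SE 0.06) and PPM1D, a phosphatase that ends the damage response, from 387 and 345 to 776 and 718 (0.97, SE 0.12).

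Of the 34 genes, 18 were not called, and 3 of them are given here, chosen after their values were seen. MDM2, its ubiquitin ligase, read 110 and 127 with vehicle and 91.0 and 108 with decitabine. DDB2, a repair factor, read 260 and 243 against 304 and 258, and TP53I3 read 349 and 280 against 366 and 353. CCNG1, a further p53 target, fell from 5013 and 5115 to 3082 and 3105 (-0.71, SE 0.07, limma adjusted p = 7.11e-08). Of the death genes, BIK, a BH3-only killer, went from 23.9 and 54.6 to 227 and 167 (1.71, SE 0.31), and TNFRSF10B, a TRAIL receptor, from 680 and 651 to 1083 and 969 (0.60, SE 0.07). BNIP3, a mitochondrial hypoxia gene, fell from 3427 and 2900 to 1722 and 1560 (-0.93, SE 0.09). In the BCL2 and caspase list as a whole 7 of 24 rose and 2 fell.

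The largest falls included many long genes: 7 of the 20 exceed 200 kb, against 6.71% of all genes tested and 11.9% of all lower genes. TBC1D22A, a Rab GTPase activator, read 432 and 540 with vehicle and 70.1 and 93.0 with decitabine 3 µM (-2.19, SE 0.14, limma adjusted p = 2.05e-10). INPP5A, an inositol phosphatase, fell from 811 and 910 to 203 and 194 (-1.95, SE 0.10), AGAP1, an Arf GTPase activator, from 329 and 368 to 96.0 and 86.9 (-1.62, SE 0.12), and STX8, a syntaxin of endosomes, from 722 and 830 to 260 and 292 (-1.39, SE 0.12). Their lengths in the annotation are 413, 246, 638 and 325 kb in that order. TUBGCP3, a subunit of the microtubule nucleator, fell from 556 and 574 to 199 and 191 (-1.39, SE 0.11) and PLXNA1, a semaphorin receptor, from 579 and 661 to 195 and 214 (-1.46, SE 0.12).

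Across genes, the share that fell increased with gene length. Of the 3426 genes up to 25 kb, 11.1% fell and 18.8% rose, and of the 389 genes of 200 to 400 kb, 26.5% fell and 7.46% rose. Beyond 400 kb, 24.2% of 149 genes fell and 10.7% rose. The median length was 31.3 kb for all genes tested, 11.9 kb for the genes that rose past 1 and 78.3 kb for those that fell past 1. The relation appeared at each level of vehicle signal: from 200 to 500, 33.7% of the genes over 200 kb fell against 10.8% of those up to 25 kb, and above 2000, 11 of 20 against 15.3%. Under a signal of 100, where a fall is hard to see, the shares were 9.24% and 1.05%. The median log2 difference went from 0.03 for genes up to 25 kb to -0.17 beyond 400 kb. With decitabine in A549 the medians of these end bins were 0.03 and -0.24, and with azacitidine in H1299 they were 0.01 and 0.05.

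**Figure D3:**
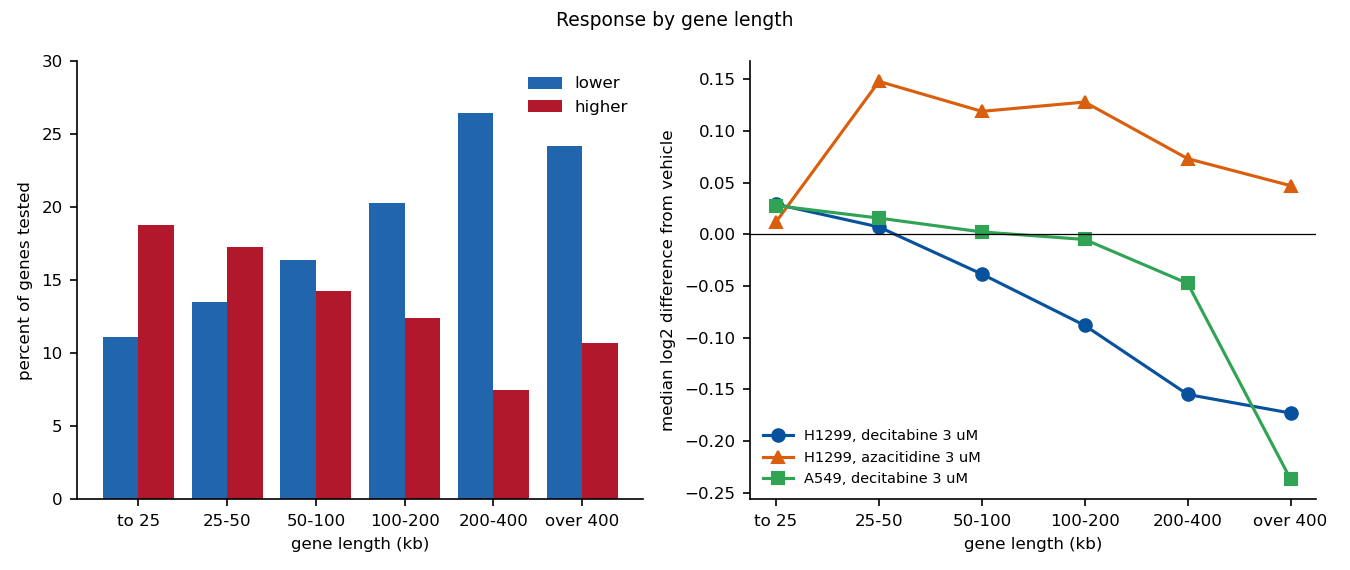
Left, percent of genes tested that were called lower or higher with decitabine 3 µM in H1299 in 6 bins of gene length (kb); right, median log2 difference from the vehicle of the same line per bin for 3 treatments. The share of lower genes went from 11.1% in the shortest bin to 26.5% at 200 to 400 kb, and the azacitidine medians stayed between 0.01 and 0.15.

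Sterol and fatty acid synthesis was the list with the largest share of falls. Of 28 genes tested, 13 fell, against 14.6% of all genes, and 1 rose, with a median of -0.28. INSIG1, the sterol sensor that is itself a target of the SREBP factors, read 1812 and 1808 with vehicle and 642 and 590 with decitabine 3 µM (-1.51, SE 0.14, limma adjusted p = 2.87e-08). SCD, the desaturase of fatty acids, fell from 7139 and 7130 to 2535 and 2591 (-1.47, SE 0.12), FASN, the fatty acid synthase, from 1423 and 1423 to 735 and 770 (-0.89, SE 0.08), DHCR7, the last enzyme of cholesterol synthesis, from 386 and 393 to 170 and 158 (-1.11, SE 0.19), and MSMO1, a sterol oxidase, from 1756 and 1664 to 1079 and 799 (-0.86, SE 0.11). LRP8, a lipoprotein receptor outside this list, fell from 501 and 517 to 189 and 179 (-1.33, SE 0.10).

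Most of the amino acid synthesis genes tested fell, and the stress regulators were divided. The integrated stress response, the programme led by ATF4, had 6 genes higher and 17 lower of 42. Of the 11 amino acid synthesis genes, 8 fell and none rose, and of the 11 tRNA synthetases, 5 fell and none rose. ASNS, asparagine synthetase, read 3716 and 4075 with vehicle and 1424 and 1314 with decitabine 3 µM (-1.49, SE 0.07, limma adjusted p = 1.00e-12), and PHGDH, which starts serine synthesis, fell from 631 and 685 to 241 and 248 (-1.32, SE 0.08). SLC7A11, the cystine carrier, fell from 662 and 530 to 232 and 260 (-1.17, SE 0.11), and DDIT4, an inhibitor of mTORC1, from 1065 and 840 to 331 and 317 (-1.46, SE 0.08). Of the 12 regulators 5 rose and 2 fell, CEBPG and DDIT4, and their median was 0.08. Among those that rose were DDIT3, the factor known as CHOP, from 271 and 247 to 694 and 691 (1.32, SE 0.15) and ATF3 from 178 and 144 to 441 and 468 (1.34, SE 0.15).

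DNA replication genes fell modestly and in number. Of 63 genes of the G1/S transition and replication, 24 fell and 3 rose (median -0.20), and of the 31 at the replication fork, 14 fell and none rose. SKP2, which marks p27 for destruction, read 1736 and 1615 with vehicle and 771 and 824 with decitabine (-1.04, SE 0.09, limma adjusted p = 1.65e-08). CDT1, the licensing factor, fell from 417 and 413 to 165 and 238 (-0.95, SE 0.18), and RB1, the retinoblastoma protein, from 1788 and 1555 to 666 and 908 (-1.07, SE 0.20). Mitotic genes were less affected in size: 18 of 64 fell and 3 rose, and their median was -0.02. LMNB1, a nuclear lamin, fell from 939 and 771 to 494 and 431 (-0.84, SE 0.14). Of 41 DNA repair genes 8 fell and 2 rose: MSH6, a mismatch repair protein, fell from 3345 and 3409 to 2146 and 2118 (-0.66, SE 0.09), and ERCC1, a subunit of a repair nuclease, rose from 2402 and 2619 to 4700 and 4195 (0.82, SE 0.09).

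Ribosome biogenesis genes rose by small amounts, 17 of 43 with 2 lower (median 0.20). BYSL, a factor of the small subunit, read 722 and 823 against 1362 and 1480 (0.85, SE 0.11) and PWP2 731 and 791 against 1142 and 1189 (0.60, SE 0.10). Of 41 antioxidant and xenobiotic genes 8 were higher and 10 lower, against 16.3% and 14.6% of all genes. MT1E, a metallothionein whose probe set can share probes with its relatives, went from 439 and 470 to 1508 and 1434 (1.63, SE 0.23), CAT, catalase, fell from 1304 and 1337 to 791 and 780 (-0.73, SE 0.08), and PIR, an NRF2 target, from 1082 and 1068 to 546 and 479 (-1.03, SE 0.08).

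Of the methyltransferases that decitabine acts on, DNMT3B alone was called. DNMT1, the maintenance methyltransferase, read 2577 and 2792 with vehicle and 2340 and 2398 with decitabine 3 µM and was not called (-0.18, SE 0.07, limma adjusted p = 0.0574). DNMT3A read 190 and 213 against 216 and 197 and was not called. DNMT3B, a de novo methyltransferase, rose from 259 and 253 to 399 and 353 (0.50, SE 0.13, adjusted p = 0.00524), and without decitabine replicate 1 its adjusted p was 0.0674. Of 24 genes of the methylation machinery 5 fell and 1 rose. TRIM28, a corepressor of repeats, was among the falls, at 1607 and 1718 against 1346 and 1273 (-0.34, SE 0.07).

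Of 25 genes of cytidine analog uptake, activation and breakdown and of nucleotide synthesis, 8 fell and 2 rose. The 9 genes of nucleotide synthesis held 4 of these falls and no rise. DCK, the kinase that activates decitabine, read 848 and 807 with vehicle and 734 and 755 with decitabine and was not called (-0.15, SE 0.12). CDA, the deaminase that inactivates the drug, was near 0 in H1299, at 10.1 and 2.26 against 18.5 and 1.40. UPP1, uridine phosphorylase, rose from 210 and 210 to 584 and 580 (1.34, SE 0.14), and NT5C2, a nucleotidase, fell from 2638 and 2342 to 1185 and 1376 (-0.94, SE 0.21).

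The remaining lists are given by their counts, against 16.3% higher and 14.6% lower over all genes. Of 14 HOX genes 3 rose and 1 fell, of 19 neural and neuroendocrine genes 5 rose and 2 fell, of 43 oxidative phosphorylation genes 3 rose and 6 fell, and of 16 housekeeping genes 1 rose and 1 fell. Genes whose symbols begin with ZNF, which encode zinc finger proteins, were looked at after the values had been seen: 50 of 171 rose and 6 fell, with a median of 0.17, beside the same 16.3% and 14.6% over all genes.

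The dose mattered for some of these genes and not for others. The principal components of the 14 H1299 arrays placed the groups in order of dose on the second component (19.6% of the variance): vehicle at 22.1 and 22.5, decitabine 0.3 µM at -3.94 and -3.88, 1 µM at -11.8 and -10.8, and 3 µM at -16.4 and -15.8. Between 3 and 0.3 µM, 797 genes differed (9.93%), 455 of them higher at 3 µM (5.67%) and 342 lower (4.26%). The count was 326 without 0.3 µM replicate 1, 327 without 3 µM replicate 1 and 369 without 3 µM replicate 2. This comparison shares the 3 µM arrays with the comparison against vehicle.

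The leading germ cell genes did not differ detectably between the lowest and the highest dose. DAZL read 1344 and 1514 at 0.3 µM and 1952 and 1976 at 1 µM, and between 3 and 0.3 µM it differed by 0.27 (SE 0.16, limma adjusted p = 0.342). MAGEB2 read 2707 and 2787 at 0.3 µM and differed by 0.00 (95% interval -0.35 to 0.35). GJA1, SPARC, LXN, SFN and H2BC12 were not called between these doses. GPX1 was lower at 3 than at 0.3 µM, where it read 1247 and 1104 (-0.56, adjusted p = 0.0223).

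Other rises grew with each dose. EGR1 read 365 and 341 with vehicle, 1097 and 1205 at 0.3 µM, 2110 and 1901 at 1 µM, and 2678 and 2605 at 3 µM, and the 3 µM arrays stood 1.18 above those at 0.3 µM (SE 0.13, limma adjusted p = 3.18e-06). ARL14, a small GTPase of vesicle traffic, read 226 and 228, then 335 and 487, then 1226 and 1207, then 1726 and 1608 (1.96 between 3 and 0.3 µM). RRAD, a GTPase that binds calcium channels, read 3.28 and 6.45, then 7.46 and 20.3, then 95.3 and 108, then 184 and 167 (2.19). ANXA3, an annexin, ZNF345, EGR3, CCN2, IGFBP3, WIF1, CXCL1 and CCL20 showed the same order of means, with differences of 0.93 to 1.68 between the end doses, except that EGR3 read 11.5 and 26.8 at 0.3 µM, overlapping its vehicle arrays. Of the AP-1 and immediate early genes 8 of 19 were higher at 3 µM and 2 lower, and of the epithelial genes 6 of 25 were higher and none lower.

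The metabolic falls were also graded. ASNS read 3064 and 3039 at 0.3 µM, 1761 and 1765 at 1 µM and 1424 and 1314 at 3 µM (-1.14, SE 0.07, limma adjusted p = 2.04e-09). FASN, at 1411 and 1328 at 0.3 µM, was still close to its vehicle value and fell from there (-0.84). BNIP3 read 3310 and 2981 at 0.3 µM, within its vehicle range, and differed by -0.93 between 3 and 0.3 µM. SLC7A11 read 557 and 505 at 0.3 µM and differed by -1.02. LRP8 was already below its vehicle arrays at 0.3 µM, at 409 and 431, and differed by -1.07. Of the sterol and fatty acid genes 10 of 28 were lower at 3 than at 0.3 µM and none higher. Of the 20 largest falls 14 were lower at 3 µM and 6 did not pass, among them PRKCA and EMP1. These genes were chosen on the same 3 µM arrays, so this count was favoured by the choice. Of all 1172 genes lower against vehicle, 22.2% were lower at 3 than at 0.3 µM.

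A small set peaked at the lowest dose. DHRS2, a short-chain dehydrogenase, read 63.6 and 22.4 with vehicle, 686 and 621 at 0.3 µM, 407 and 394 at 1 µM and 243 and 302 at 3 µM (-1.18 between 3 and 0.3 µM, limma adjusted p = 3.15e-04). ASMTL, a gene of the pseudoautosomal region, read 524 and 511, then 2029 and 1813, then 1352 and 1358, then 887 and 870 (-1.10). Both were still higher at 3 µM than with vehicle.

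**Figure D4:**
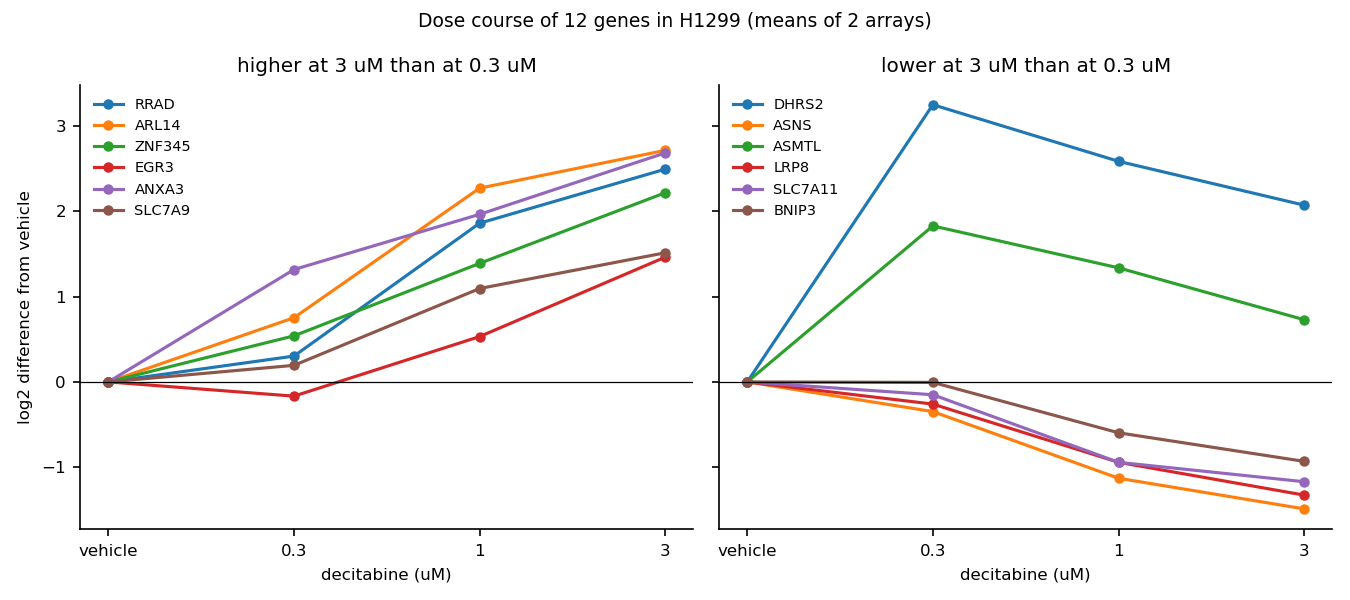
Log2 difference from vehicle at decitabine 0.3, 1 and 3 µM (means of 2 arrays) for the 6 genes with the largest positive and the 6 with the largest negative difference between 3 and 0.3 µM among genes called against vehicle. RRAD, ARL14 and ZNF345 climbed at each step, and DHRS2 and ASMTL peaked at 0.3 µM.

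Azacitidine was compared with decitabine at the matched dose of 3 µM and the matched time, a single pair of compounds. Azacitidine carries ribose where decitabine carries deoxyribose. Between them 4516 genes differed (56.3%), 1872 higher with decitabine (23.3%) and 2644 lower (33.0%), and the median over all genes was -0.10. On the main component of the H1299 arrays (50.4% of the variance) the azacitidine 3 µM arrays stood at 42.8 and 42.8 and the decitabine 3 µM arrays at -15.0 and -14.7, against -5.12 and -6.52 with vehicle.

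All 20 of the largest rises with decitabine were higher with decitabine than with azacitidine. These genes were chosen on the same decitabine arrays, so this count was favoured by the choice. Of all 1305 genes higher against vehicle, 612 were higher with decitabine than with azacitidine (46.9%). DAZL read 91.2 and 67.0 with azacitidine (difference 3.99, SE 0.16, limma adjusted p = 2.25e-14) and MAGEB2 774 and 861 (1.71, SE 0.17). GPX1 read 11.97 and 3.08 (4.38, SE 0.15), CCL20 2.40 and 4.49 (3.37, SE 0.22), S100A6 2.38 and 5.90 (2.96, SE 0.10) and KRT19 1.44 and 0.927 (2.36, SE 0.14). GPX1, CCL20, S100A6 and KRT19 read between 0.927 and 11.97 on the azacitidine arrays, while MAGEB2 and DAZL lay between their vehicle and decitabine values. Among genes called against vehicle and higher with decitabine than with azacitidine, the widest gap was that of DKK1. DKK1 read 69.9 and 41.4 with azacitidine, below its vehicle level, and 2240 and 2308 with decitabine (4.74, SE 0.12).

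TAC1, the precursor of substance P, had the widest gap in the other direction among genes called against vehicle. It read 2157 and 2129 with azacitidine and 40.0 and 20.2 with decitabine (-5.15, SE 0.21). Its call against vehicle (0.76) was lost in some alternative settings. Genes not called against vehicle were not ranked by this gap.

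The stress genes also were higher with azacitidine. ASNS read 11912 and 11860 with azacitidine against 1424 and 1314 with decitabine (-3.09, SE 0.07, limma adjusted p = 2.00e-18), and DDIT3 6940 and 6646 against 694 and 691 (-3.24, SE 0.15). TRIB3 read 6957 and 7152 against 491 and 469, and UPP1 5748 and 6057 against 584 and 580. Of the 42 genes of the integrated stress response 39 were lower with decitabine and 1 was higher, with a median difference of -1.54. Of the 64 mitotic genes 59 were higher with decitabine and none lower: their median log2 difference from vehicle was -0.02 with decitabine and -0.997 with azacitidine.

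Some responses did not differ detectably between the compounds. LRP8 read 181 and 170 with azacitidine, a difference of 0.06 (95% interval -0.16 to 0.27), and DUSP1 1319 and 1335, a difference of 0.05 (-0.12 to 0.22). BNIP3 differed by -0.07 (-0.25 to 0.11), TGFBR2 by -0.05 (-0.23 to 0.13) and DHCR7 by -0.01 (-0.40 to 0.38). The intervals bound the difference and do not show that the compounds act alike. DNMT1 was lower with azacitidine, at 1554 and 1468 (0.64, SE 0.07).

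The H1299 response to decitabine 3 µM was set against that of A549 at the same dose by the interaction of line and drug. The description of A549 decitabine 3 µM replicate 1 carries the word REPEAT, which no label explains. The responses differed for 1383 genes (17.2%), 630 more positive in H1299 (7.85%) and 753 more negative (9.38%). Of the 20 largest rises 19 were more positive in H1299, and CCL20 did not pass (0.70, limma adjusted p = 0.127). The 20 genes were chosen by their rise in H1299, which is part of this comparison, so the count was favoured by the choice. Of all 1305 genes higher in H1299, 434 were more positive in H1299 than in A549 (33.3%). DAZL rose in A549 from 27.2 and 13.7 to 609 and 743, a response 1.87 smaller than in H1299. GPX1, S100A6, GJA1, LXN and CRIP1 were already bright in A549 with vehicle. EGR1 read 95.4 and 85.7 in A549 with vehicle and 109 and 118 with decitabine, a difference between the lines of 2.54 (SE 0.18).

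Of the 34 tested genes of the p53 network 15 were more positive in A549, which has p53, and 5 more positive in H1299. Over all genes the shares were 9.38% and 7.85%. The median log2 difference was 0.69 in A549 and 0.25 in H1299. DDB2 went from 865 and 797 to 1973 and 2175 in A549 (difference between the lines -1.15, limma adjusted p = 4.16e-05), and FAS, the death receptor, from 456 and 489 to 1705 and 1780 there, against 450 and 462 to 652 and 709 in H1299 (-1.27). CDKN1A went from 1078 and 1259 to 3767 and 3460 in A549 (-0.60), and CCNG1 rose there from 2533 and 2541 to 3820 and 3770, the opposite of its fall in H1299 (-1.28). SAT1, PLK2 and IER5 responded more in H1299, by 1.41, 1.28 and 0.48.

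**Figure D5:**
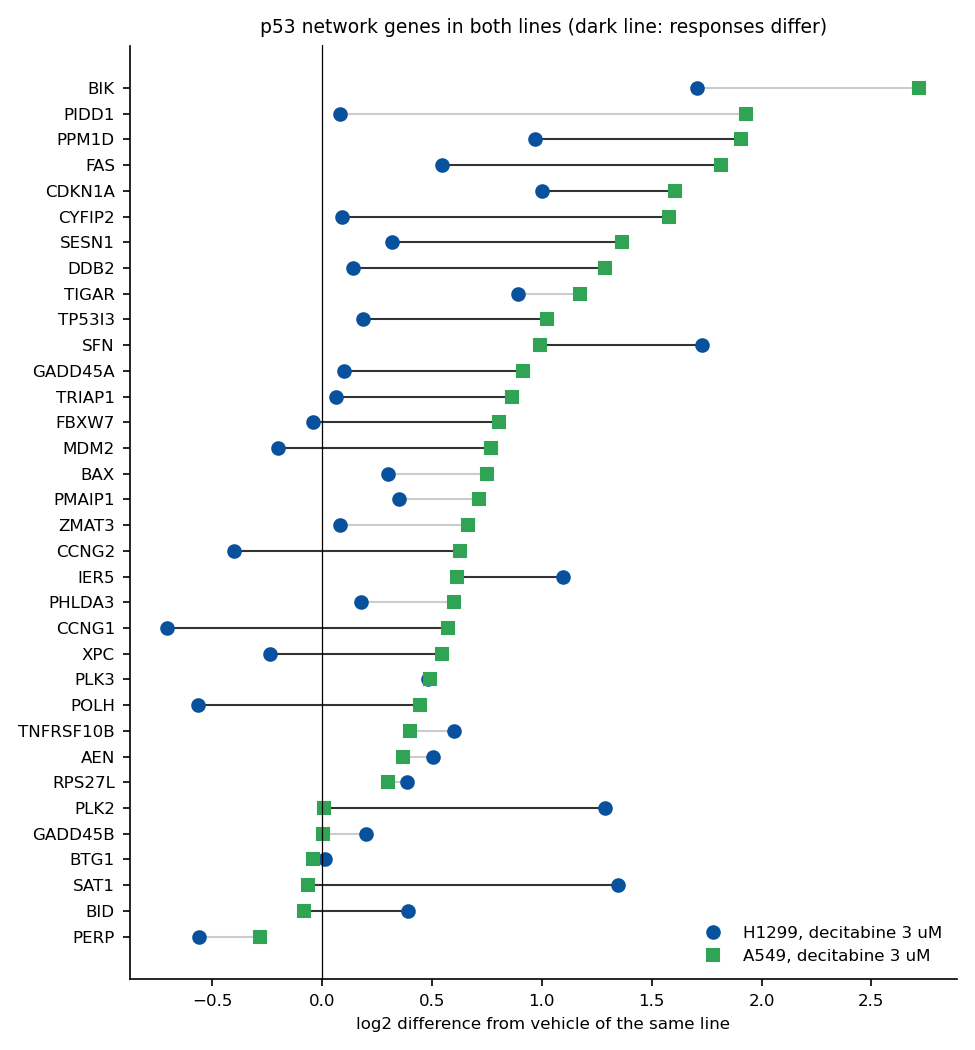
Log2 difference from the vehicle of the same line with decitabine 3 µM for the 34 tested genes of the p53 network, H1299 as blue circles and A549 as green squares; a dark line marks genes whose responses differed between the lines (adjusted p under 0.05). DDB2, FAS and CYFIP2 lie further right in A549, and SAT1 and PLK2 in H1299.

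For EPCAM, KRT19 and CLDN7 the difference between the lines did not pass the test, which does not show that the responses were equal. EPCAM went from 234 and 215 to 1272 and 1200 in A549 (difference between the lines 0.20, limma adjusted p = 0.638) and KRT19 from 171 and 139 to 795 and 714 (0.28, adjusted p = 0.368). SPARC went from 358 and 369 to 1166 and 1069 in A549, a smaller response than in H1299 (1.40). AQP3 responded more in A549, from 303 and 284 to 1681 and 1622 (-0.95). INSIG1 went from 655 and 562 to 317 and 298 in A549, a smaller fall than in H1299 (-0.60). Of the sterol and fatty acid genes 11 of 28 fell further in H1299 and none in A549. EMP1, a membrane protein of epithelia, was lower in treated H1299, at 2403 and 2336 against 976 and 880, and higher in treated A549, at 543 and 566 against 900 and 1045, a difference between the lines of -2.10 (SE 0.19).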

How the data were processed

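Expression was measured in 28 one-colour Affymetrix arrays of 22277 probe sets, 2 for each of 14 groups. Values are linear intensities that the authors made with MAS5, per the submitters' processing notes. Its version and scaling target are not given in the sources used here. The mean after trimming 2% at each end was nearly the same on every array, so no further scaling was applied. Of the probe sets, 19064 had 1 gene symbol and 1043 had several, which were not named. A probe set was kept where it lay above the array median on at least 2 of the 28 arrays. Where several kept probe sets named a gene, the brightest on average stood for it, which left 8024 genes. Differences were fitted on log2(signal + 32) with limma 3.58.1 in R 4.3.3, with all 14 groups sharing 1 estimate of spread (14 residual degrees of freedom), and Benjamini-Hochberg adjustment over the 8024 genes. The fit was tested on simulated data. Figures and summaries used Python 3.11.15, pandas 2.3.3 and matplotlib 3.10.9.

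Genes were named by rule: the 20 largest rises and 20 largest falls whose treated arrays lay beyond both vehicle arrays, up to 5 called members of each gene list, any member of the methylation, cytidine analog and p53 lists, and the 6 largest differences each way in the dose, drug and line comparisons. Those differences were ranked among genes called against vehicle. Members of lists that were not called and are named beside them (JUN, MYC, CXCL8, IL6, B2M, MAGEA4 and MAGEA6, for example) were chosen after their values were seen. The members and lists were chosen with earlier results of these data known. The rule took 251 genes, of which the text names a part, and 1 of the 20 largest rises is not reported here. The number of arrays limits the precision. Alternatives tried were the pseudocount, the filter, the centring or scaling, a fold threshold, a replicate block and leaving out each array.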

Additional observations from a re-analysis of the deposited data

Results flagged for a closer look

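The responses of H1299 and A549 to decitabine 3 µM differed for 1383 genes by the interaction test in limma. The largest differences among genes called in H1299, as the log2 response of H1299 minus that of A549, were 3.79 for GPX1, 2.784 for MAGEB2, 2.778 for S100A6, 2.6 for GJA1, 2.554 for KHDC1L and 2.544 for EGR1. In the other direction they were -2.387 for VAC14, -2.097 for EMP1, -1.893 for ALDH1A3, -1.86 for GLDC, -1.845 for PLXNA1 and -1.596 for CRYBG1. The H1299 call of ALDH1A3 was lost in some alternative settings. Groups of 2 arrays are too small to look for a single array that stands apart.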

How the results depend on the processing

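Leaving out 1 array at a time, with the lone array of its group assumed to vary like the other groups, gave 1686 to 1820 genes against vehicle, 900 to 979 higher and 754 to 846 lower. Between 3 and 0.3 µM it gave 326 to 593 genes, 174 to 359 higher and 132 to 234 lower. A log2 difference past 1 as a further condition left 273 genes against vehicle (200 higher, 73 lower), 29 between the doses (23 and 6), 899 between the drugs (420 and 479) and 321 between the lines (149 and 172). Replicate numbers are shared by label alone: vehicle and decitabine 3 µM arrays of the same number had deviations correlated at -0.0524. With the replicate block 2560 genes were called against vehicle (1329 higher, 1231 lower), 849 between the doses, 4589 between the drugs and 1465 between the lines. Direction under the alternatives was checked only for the named genes against vehicle. None of the called ones changed direction, while some that were not called, such as CDA (-0.19 to 0.41) and DNMT3A (-0.04 to 0.10), took either sign. Of all genes called against vehicle, 811 had another kept probe set, and for 10 of these a probe set was called the other way. Of the 202 named genes called against vehicle, 151 were called in every setting with a value, and of the 40 largest changes 38 were, the exceptions being HS3ST3A1 (adjusted p 0.119) and GPM6A (0.0883) with a pseudocount of 1 in limma. Signals near the bottom of the scale bound what can be said of dim genes.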
